A study of Mus musculus with 6 samples.

Results

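Type I interferon-stimulated genes are the genes that a cell switches on when interferon-α or interferon-β binds to it. A set of 39 such genes, chosen by name from the well-known targets of the pathway, was followed in the leukocytes of the spinal cord during experimental autoimmune encephalomyelitis (EAE), a mouse model of multiple sclerosis, and in microglia of naive mice. The single-cell counts held 38 of the 39 genes among 19449 genes, Mx1 was not analysed there, and the bulk counts held 39 of 39.

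Interferon-α and interferon-β signal through a receptor made of IFNAR1 and IFNAR2, which activates the kinases JAK1 and TYK2. These phosphorylate STAT2, which joins IRF9 in the complex ISGF3, and the complex binds a short DNA element in the promoters of its target genes, the interferon-stimulated response element. The targets include RNA-binding antiviral proteins, sensors of foreign nucleic acid, and members of the pathway itself, among them IRF7, which raises interferon production further, and USP18, which shuts signalling off. In the central nervous system, microglia, the resident macrophages, both make and respond to interferon-β, and recombinant interferon-β is a treatment of multiple sclerosis.

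The single-cell libraries held CD45+ cells of the spinal cord of C57BL/6 mice with adoptive-transfer EAE, 1 library each from young recipients (8 to 12 weeks old) and middle-aged recipients (40 to 44 weeks old) on day 6 and on day 10 after transfer, with 4 pooled spinal cords in every library. All recipients had received CD4+ T cells from MOG35-55-immunised CD45.1 donors that were kept for 96 h under IL-23-driven Th17 polarising conditions, so the recipients differed in age and day but not in the kind of cell transferred. The bulk libraries, 1 for each age, held microglia sorted as CD45int CD11b+ cells from naive young and middle-aged mice. Because each combination of age and day was 1 library of pooled animals, a single contrast between 2 libraries has no replicate check. Its interval covers counting error only, and a difference between days cannot be told apart from a difference between the occasions on which the libraries were made. The study reports an earlier onset of deficits in middle-aged recipients, so on the same day the ages may also differ in disease stage. Age and stage cannot be told apart here.

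The libraries held 8315 to 10026 cells and 57337626 to 69859331 unique molecular identifiers (UMIs, counted molecules), with a median of 4704.5 to 6196 UMIs per cell. In all, 38057 cells were analysed, and 154 cell barcodes occurred in more than 1 library. Cells were taken in the deposited clusters, which were named from marker genes: clusters 10 and 8 were microglia-like, 1 and 5 monocyte/macrophage-like, 0, 3 and 6 neutrophil-like, 2 T cell-like, 7 dendritic cell-like, 4 B cell-like and 9 NK-like. Levels are given as CPM, the usual scaling of a gene's count (here UMIs) by the total of all genes, taken over the cells of 1 cluster and library. Clusters 8 and 3 differed in marker content between the days. In cluster 8 the 10 monocyte/macrophage markers summed to 1318 and 2123 CPM on day 6 (young, middle-aged). They summed to 16274 and 18669 on day 10, with none of the 10 at 0. The 10 microglia markers of cluster 8 summed to 6239 and 4035 CPM on day 6 and 2692 and 3264 on day 10. Its 10 neutrophil markers summed to 7070 and 10389 on day 6 and 8883 and 3636 on day 10, above the microglia markers in every library. In cluster 3 the 10 neutrophil markers summed to 156922 and 166713 CPM on day 6 and 310860 and 212396 on day 10. Its monocyte/macrophage markers summed to 1580 and 1591 on day 6 and 9480 and 5897 on day 10.

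The promoters of many, but not all, of these genes hold the letters that ISGF3 reads. RefSeq promoter sequence (GRCm38.p6, 250 bases before to 50 after the start) was matched for 31 of 39 members, and 20 of the 31 held the core of the response element (GAAA, any 2 bases and GAAA again, searched on both strands) in at least 1 promoter, compared with 3.99% of 27025 genes. Of the 29 matches to the response element in members, 25 lay before the start, between 14 and 222 bases from it. Of the 31 members, 11 held no match, Irf7, Irf9 and Oasl1 among them. A match describes the letters only. The sequences below are the 200 bases before the start of 6 members with a match that recur in the results, with every match to the response element in capitals.
Isg15 (chr4:156200819-156201018, minus strand): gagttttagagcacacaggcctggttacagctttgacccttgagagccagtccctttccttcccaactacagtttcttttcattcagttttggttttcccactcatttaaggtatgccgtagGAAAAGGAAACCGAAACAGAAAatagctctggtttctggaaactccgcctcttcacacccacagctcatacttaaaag
Ifit1 (chr19:34640689-34640888, plus strand): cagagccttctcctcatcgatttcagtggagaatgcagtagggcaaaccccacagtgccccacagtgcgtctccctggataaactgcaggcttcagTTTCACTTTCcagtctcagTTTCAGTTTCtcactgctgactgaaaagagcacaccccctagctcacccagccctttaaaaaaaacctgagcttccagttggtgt
Ifit3 (chr19:34583329-34583528, plus strand): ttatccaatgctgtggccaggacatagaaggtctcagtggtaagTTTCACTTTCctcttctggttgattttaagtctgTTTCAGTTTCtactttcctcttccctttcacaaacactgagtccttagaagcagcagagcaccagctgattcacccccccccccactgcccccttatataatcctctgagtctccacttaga
Ifit3b (chr19:34607757-34607956, plus strand): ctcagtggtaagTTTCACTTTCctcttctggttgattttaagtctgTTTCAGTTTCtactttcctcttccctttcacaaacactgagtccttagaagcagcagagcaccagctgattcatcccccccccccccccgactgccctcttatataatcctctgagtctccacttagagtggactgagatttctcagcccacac
Oas3 (chr5:120777660-120777859, minus strand): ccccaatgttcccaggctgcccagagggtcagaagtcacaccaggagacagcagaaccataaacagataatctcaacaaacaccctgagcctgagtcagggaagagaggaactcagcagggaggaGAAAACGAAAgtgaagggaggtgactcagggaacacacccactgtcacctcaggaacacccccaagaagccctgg
Bst2 (chr8:71537473-71537672, minus strand): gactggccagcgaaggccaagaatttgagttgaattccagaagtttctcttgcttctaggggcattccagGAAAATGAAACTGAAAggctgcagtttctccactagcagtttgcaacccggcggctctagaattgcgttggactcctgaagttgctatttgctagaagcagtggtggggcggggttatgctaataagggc
Isg15 carries 3 matches in 1 overlapping run, Bst2 carries an overlapping pair, and Ifit1, Ifit3 and Ifit3b carry their pair as separate elements on the opposite strand, while no match was found in either promoter of Ifit2. The Ifit3 and Ifit3b promoters are near copies, with 167 of 200 bases in common in the same order. Their transcripts are also alike, 34.7% of the 91-base stretches of Ifit3 being found in Ifit3b, as are those of Ifi204 and Ifi211 (15.8% of Ifi204), so counts may be split between the partners of each pair and the values of these 4 genes are uncertain.

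The members were present in every named cluster, and among the 11 named clusters the neutrophil-like cluster 0 had the highest summed level in all 4 libraries. In cluster 0 the 38 members together held 28990.1 CPM in the young and 34165 in the middle-aged library on day 6, and 8259 and 6252 on day 10. In the monocyte/macrophage-like cluster 1 they held 19659 CPM in the young and 19019.6 in the middle-aged library on day 6, and 4019 and 3278 on day 10. The T cell-like cluster 2 held 7041, 7330.3, 1708 and 1495 in the same order. Both day 6 libraries were therefore above both day 10 libraries in these 3 cell types, with no overlap. The microglia-like cluster 10 held 6499.9 CPM in the young and 9441 in the middle-aged library on day 6, and 4284 and 3689 on day 10.

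Member by member, 21 of 38 reached their highest level among the 11 named clusters in a neutrophil-like cluster in all 4 libraries, 3 did so in a monocyte/macrophage-like cluster and 2 in the dendritic cell-like cluster, while the cell type with the highest level differed between libraries for the other 12. Leaving out Ifi27l2a, Isg15 and Bst2 did not change the order of days in cluster 0. The other members summed there to 22924 and 26881 CPM on day 6 (young, middle-aged) and 6358 and 5294 on day 10. Levels in other cells can include free RNA of neutrophils, and the neutrophil granule genes S100a8 and S100a9 give a measure of it. In T cells they reached 0.181% to 0.847% of their level in cluster 0, while the members stood at 20.7% to 24.3% of theirs. A ceiling for such RNA was set by letting all S100a8 and S100a9 UMIs of a cluster come from cluster 0 and bring the members along in the ratio they have there. That ceiling was 0.744% to 4.10% of the members' level in T cells and 4.05% to 7.83% in cluster 7. It was 7.57% to 20.0% in cluster 1, 18.0% to 56.1% in cluster 5, 11.5% to 40.7% in cluster 10 and 18.1% to 79.6% in cluster 8, the highest of these being in middle-aged cluster 8 on day 6. Its part in the members' levels was not tested.

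**Figure D1:**
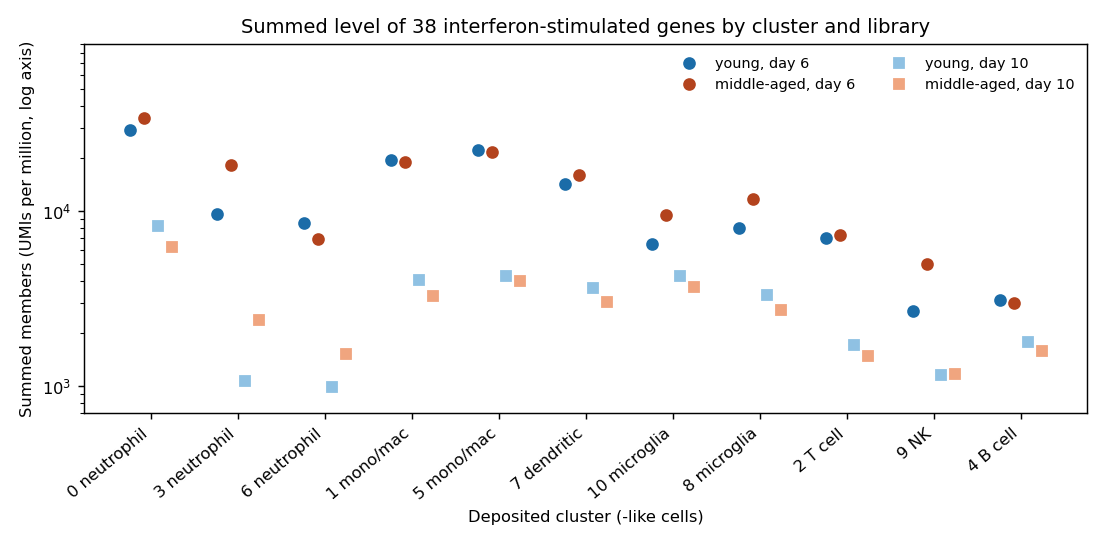
Summed level of the 38 interferon-stimulated genes in CPM (log axis) in each named cluster, 1 point for each of the 4 libraries (young or middle-aged, day 6 or day 10). The day 6 points lie above the day 10 points in every cluster, from 28990.1 and 34165 against 8259 and 6252 in neutrophil-like cluster 0 down to smaller gaps in microglia-like cluster 10.

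The first question was how the response changed between day 6, the earlier sampling, and day 10. With all cells used, the interferon-stimulated genes fell in each of the 8 clusters tested, with the largest median change in neutrophil-like cluster 3 and the smallest in microglia-like cluster 10. Without cells that held markers of another lineage, the summed log2 change in young mice was -0.06 in cluster 10 and -0.63 in cluster 8. The share of members at least 1.5-fold lower was then near that of all genes in both, as given below. Across the 12 clusters with at least 40 cells in every library, their summed level was 1.52 to 9.03-fold lower on day 10 in young and 1.87 to 7.69-fold lower in middle-aged mice, and the counting interval excluded no change in 12 of 12 at both ages. With both ages as replicates of a day, edgeR's quasi-likelihood test with Benjamini-Hochberg adjustment over all genes (adjusted p below 0.05, 2 libraries against 2, 1 residual degree of freedom) called 273 of 297 tests of a member in 8 clusters lower and none higher, with a negative estimate in 297 of 297. At an unadjusted p below 0.05 none was higher either, and DESeq2 called 242 lower. The 297 tests are not independent, because all clusters come from the same libraries. The share of all genes called lower by edgeR is given by cluster below.

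The share called lower stood far above the share of all genes in each cluster. In edgeR's test it was 38 of 38 in monocyte/macrophage-like cluster 1 (background 15.2%), 38 of 38 in monocyte/macrophage-like cluster 5 (background 15.3%), 37 of 37 in neutrophil-like cluster 0 (background 27.2%) and 32 of 33 in neutrophil-like cluster 3 (background 13.2%). It was 37 of 38 in T cell-like cluster 2 (background 3.25%), 38 of 38 in dendritic cell-like cluster 7 (background 4.55%), 34 of 37 in microglia-like cluster 8 (background 6.9%) and 19 of 38 in microglia-like cluster 10 (background 3.46%). The calls in cluster 3 were lost without either day 6 library and those in cluster 7 without either day 10 library, 0 being called in each of these 4 fits, in which 3 libraries were tested for day alone. Of the 33 members tested in all 8 clusters, 16 were called lower in all 8: Isg15, Isg20, Ifit1, Ifit2, Ifit3, Ifit3b, Oasl1, Oasl2, Oas3, Rtp4, Irf7, Usp18, Rsad2, Cmpk2, Slfn5 and Slfn8. The share of all genes called lower in all 8 was not counted, so the 16 are no result about the members. All clusters come from the same libraries and are not separate observations of day.

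The IFIT genes, whose proteins bind viral RNA that lacks host cap modifications and block its translation, had the largest median fall of the 7 role groups in 8 of 8 clusters. Their median log2 change from day 6 to day 10 by edgeR's test ran from -2.01 in cluster 10 to -5.26 in cluster 3, with 4 of 4 called lower in both. Ifit1 in cluster 1 was at 347 CPM in the young and 413 in the middle-aged library on day 6, and 43.8 and 29.6 on day 10. In T cells it was at 226 CPM in the young and 231 in the middle-aged library on day 6, and 10.7 and 11.6 on day 10. Both ages lay close together and the days far apart in both (log2 -3.56, adjusted p = 1.35e-06 in cluster 1 and log2 -4.25, adjusted p = 1.88e-10 in cluster 2, edgeR).

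Isg15 encodes a ubiquitin-like protein that is attached to other proteins, and Usp18 the protease that removes it. Isg15 was one of 4 interferon response genes that the study had named on these samples, so it is not independent evidence. In neutrophil-like cluster 0, Isg15 was at 4416 CPM in the young and 5358 in the middle-aged library on day 6, and 1268 and 489 on day 10. In cluster 1 it was at 2170.5 CPM in the young and 2263 in the middle-aged library on day 6, and 246 and 87.3 on day 10. It fell in both by edgeR's test (log2 -3.38, adjusted p = 2.97e-07 and log2 -4.08, adjusted p = 3.79e-06). Usp18 in cluster 1 was at 156 CPM in the young and 177 in the middle-aged library on day 6, and 25.1 and 18.6 on day 10, also a fall (log2 -3.11, adjusted p = 1.36e-06, edgeR).

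Rsad2 encodes viperin, a radical SAM enzyme that makes a chain-terminating nucleotide, and its neighbour Cmpk2 the kinase that supplies the substrate. Rsad2 in cluster 0 was at 3226 CPM in the young and 4663 in the middle-aged library on day 6, and 630.4 and 524 on day 10. In T cells it was at 74.8 CPM in the young and 99.7 in the middle-aged library on day 6, and 3.46 and 5.18 on day 10. It fell in both (log2 -3.51, adjusted p = 5.92e-09 and log2 -4.24, adjusted p = 1.78e-10, edgeR), and it and Cmpk2 were among the 16 genes called in all 8 clusters. Oasl1, a member of the oligoadenylate synthetase family without synthetase activity, was at 211 CPM in the young and 216 in the middle-aged library on day 6, and 18.2 and 14.1 on day 10 in cluster 1 (log2 -3.90, adjusted p = 3.13e-07, edgeR).

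The transcription factors of the pathway had the smallest median fall of the role groups in 5 of 8 clusters, cluster 1 among them. Irf7 in cluster 1 was at 823 CPM in the young and 811 in the middle-aged library on day 6, and 141 and 87.5 on day 10, and it fell (log2 -3.05, adjusted p = 2.52e-06, edgeR). Irf9, the DNA-binding part of ISGF3, was at 96.2 CPM in the young and 80.7 in the middle-aged library on day 6, and 43.1 and 49.2 on day 10 there (log2 -1.10, adjusted p = 7.59e-04). Stat2, its transactivating part, was at 183 CPM in the young and 152 in the middle-aged library on day 6, and 46.0 and 45.1 on day 10 (log2 -2.04, adjusted p = 7.71e-06). Both were called lower by edgeR in that cluster, at a smaller change than Irf7, although the sizes were not tested against each other. Bst2, tetherin, which holds budding virus at the cell surface, had a log2 change of -1.42 in cluster 1 (adjusted p = 5.18e-04, edgeR).

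**Figure D2:**
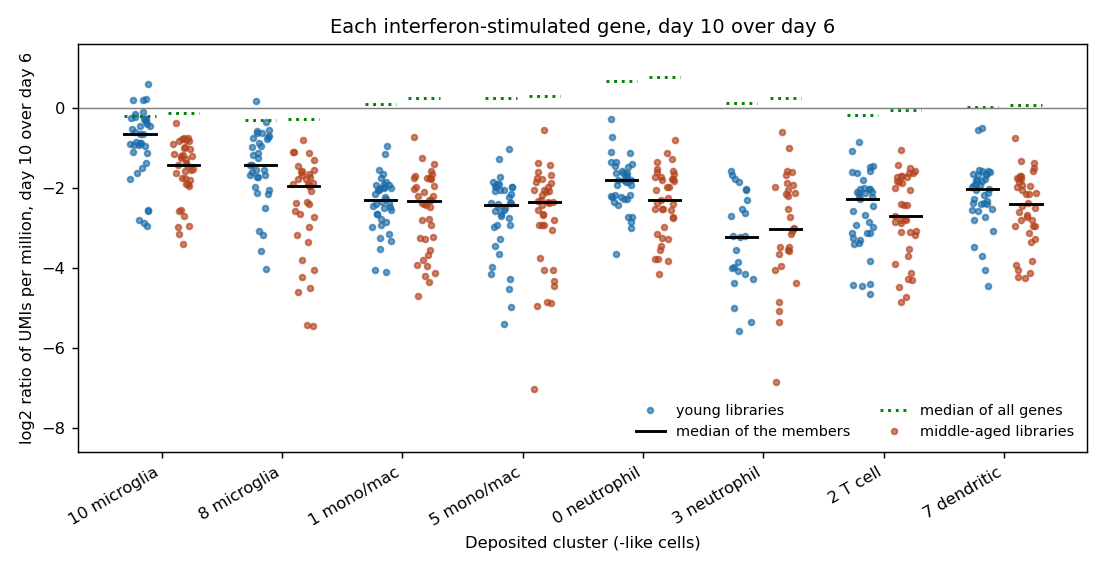
Log2 ratio of day 10 over day 6 for each member (points), with the median of the members (solid line) and of all genes (dotted line), in 8 clusters, separately for young and middle-aged recipients, over members with at least 50 UMIs in the 2 libraries. The members of all clusters but 10 and 8 lie below 0, and a few young values lie above it in those, with medians from -0.66 (young) and -1.42 (middle-aged) in cluster 10 to -3.22 and -3.01 in cluster 3.

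Age by age, the drop was present at both ages. A member counted as lower when its level was at least 1.5-fold lower on day 10 and it had at least 50 UMIs over both libraries. In cluster 1 this held for 38 of 38 members in young and 38 of 38 in middle-aged mice (background 15.8% and 11.7% of genes). In T cells it held for 37 of 37 and 37 of 37 (background 14.8% and 8.54%). In cluster 5 it held for 38 of 38 and 37 of 38 (background 12.2% and 10.4%), in cluster 0 for 36 of 37 and 37 of 37 (background 10.6% and 9.94%), and in cluster 7 for 36 of 38 and 38 of 38 (background 12.4% and 9.82%). The shallower neutrophil-like cluster 3 had 24 of 24 and 30 of 30 (background 22.2% and 18.4%). In each of these 6 clusters, then, at most 2 members with enough UMIs failed to reach 1.5-fold at either age. The minimum of 50 UMIs can be met through day 6 alone. In cluster 3, Ifit2 entered with 132 and 1 UMIs in middle-aged mice (day 6, day 10). Dhx58, with 10 and 21 in young mice, was left out. The full counts of cluster 3 are therefore set in part by the filter. edgeR's minimum of 10 UMIs in 2 libraries can be met in the same way. The members' medians were -2.31 and -2.33 in cluster 1 and -2.27 and -2.71 in cluster 2, where the medians of all genes were 0.10 and 0.25, and -0.18 and -0.039. In cluster 0 the median of all genes was itself 0.68 and 0.77, and the members' medians of -1.81 and -2.30 became -2.47 and -3.06 with TMM scaling, which centres the genes.

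The drop was also present in the median cell. With every cell thinned to 2000 UMIs, the median cell of cluster 1 held 37 and 36 UMIs of the members on day 6 (young, middle-aged) and 6 and 5 on day 10. In cluster 0 these medians were 53, 59, 12 and 10 in the same order, and in T cells they were 9, 11, 2 and 2. Cells with fewer than 2000 UMIs were left out, which removed 459 of 1489 young day 6 cells of cluster 0.

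**Figure D3:**
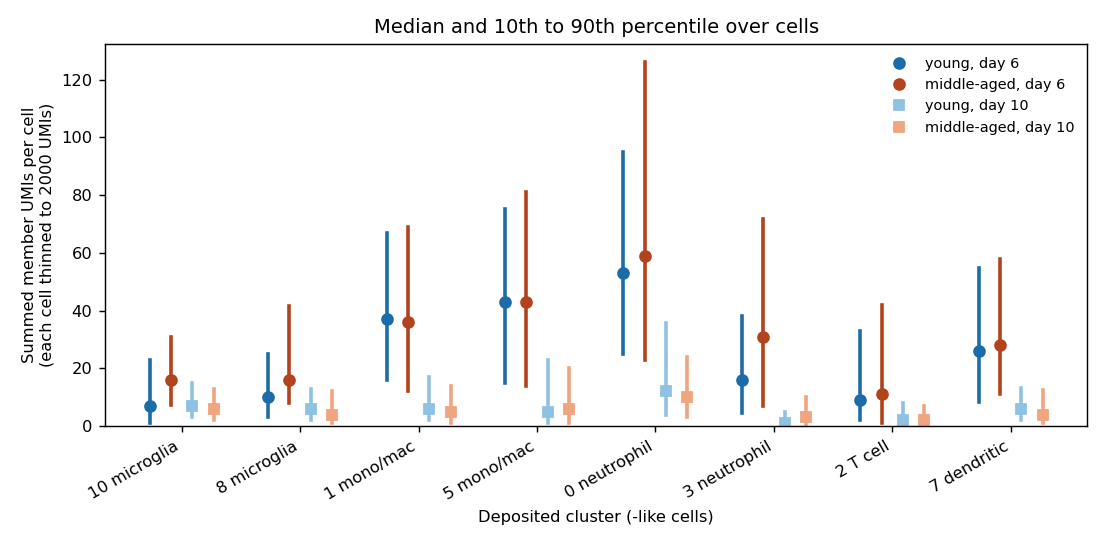
UMIs of the 38 members in single cells thinned to 2000 UMIs, by cluster and library. Each line runs from the 10th to the 90th percentile of cells and the point is the median. Medians on day 6 exceed those on day 10 in the infiltrating clusters, as in cluster 1 with 37 and 36 against 6 and 5, and in young microglia of cluster 10 the median was 7 on both days.

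Microglia of cluster 10 had the smallest median change of the 8 clusters, and the calls were unequal between roles. In edgeR's test, 19 of 38 members were lower on day 10, made up of 4 of 4 IFIT genes, both of Isg15 and Usp18, 3 of 4 OAS genes, 1 of 3 transcription factors, 2 of 6 PYHIN genes (cytosolic and nuclear DNA sensors of the Ifi200 cluster), 0 of 5 nucleic acid sensors and kinase genes (25 of 38 members had an unadjusted p below 0.05, and DESeq2 called 10 members), and 7 of 14 other effectors. Isg15 was at 591 CPM in the young and 796 in the middle-aged library on day 6, and 210.0 and 75.4 on day 10. Rsad2 was at 267 CPM in the young and 248 in the middle-aged library on day 6, and 34.4 and 32.1 on day 10. Day 6 exceeded day 10 at both ages for each (log2 -2.28, adjusted p = 0.0048 and log2 -2.80, adjusted p = 2.24e-05, edgeR).

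Other members of cluster 10 did not pass edgeR's test for day. Irf9 was at 75.4 CPM in the young and 82.7 in the middle-aged library on day 6, and 62.0 and 64.0 on day 10 (log2 -0.17, adjusted p = 0.64). Bst2 was at 747 CPM in the young and 1079 in the middle-aged library on day 6, and 586 and 574 on day 10 (log2 -0.48, adjusted p = 0.37). Ifi27l2a, a small mitochondrial membrane protein and another of the genes that the study had named, was at 566 CPM in the young and 1456 in the middle-aged library on day 6, and 663 and 615 on day 10 (log2 -0.36, adjusted p = 0.63). For Ifi27l2a the middle-aged day 6 library stood above the other 3, which lay close together.

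The day difference in young cluster 10 was smaller without cells that also held markers of another lineage. Cells with at least 2 UMIs of T, B or NK cell markers, or at least 5 of neutrophil markers, were left out, which kept 306 of 432 and 133 of 216 cells on day 6 (young, middle-aged) and 126 of 362 and 211 of 334 on day 10. The kept cells held 4528 and 8045 CPM of the members on day 6 and 4344 and 3531 on day 10. In young mice the log2 ratio of day 10 over day 6 was thus -0.06 (95% interval -0.11 to -0.0059) in kept cells and -0.60 (95% interval -0.63 to -0.57) in all cells, whereas in middle-aged mice it was -1.19 (95% interval -1.23 to -1.14) and -1.36 (95% interval -1.39 to -1.32). The cells left out held 9431 and 10859 on day 6. In kept cells edgeR called 10 members lower on day 10 (background 3.39%). The edgeR test on kept cells was added after seeing the data, and what the cells left out are was not tested.

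Some named genes of cluster 10 split in the same way and others did not. In kept cells Isg15 was at 337 and 611 CPM on day 6 (young, middle-aged) and 188 and 66.1 on day 10. Its young ratio was -0.84 and its middle-aged ratio -3.21 on the log2 scale, compared with -1.49 and -3.40 in all cells. Ifit3 changed sign in young mice, from -0.90 to 0.058 (95% interval -0.54 to 0.63). For Rsad2 the kept cells gave -1.64 (95% interval -2.27 to -1.07) in young and -1.53 (95% interval -2.06 to -1.02) in middle-aged mice, with overlapping intervals. Of members with at least 50 UMIs, 8 of 34 were at least 1.5-fold lower on day 10 in young kept cells (background 25.5%) and 3 higher (background 9.78%). The share lower was near that of all genes and is no result about the members. The same count was 21 of 37 in all cells (background 21.2%) and 36 of 37 in all cells of middle-aged mice (background 15.2%).

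In the second microglia-like cluster, 8, edgeR's test called 34 of 37 members lower, and fewer without cells that held markers of another lineage. At least 1.5-fold lower on day 10 were 31 of 34 in young and 36 of 36 in middle-aged mice (background 31.9% and 27.6%). Ifit1 was at 258 CPM in the young and 502 in the middle-aged library on day 6, and 21.6 and 11.6 on day 10 (log2 -4.19, adjusted p = 1.12e-08, edgeR). The ceiling for RNA of cluster 0 lay near or above the day 6 levels of Ifit1 in cluster 8, as given below. The part of such RNA in the fall of Ifit1 in cluster 8 was not tested. Irf9 there was at 53.8 CPM in the young and 63.8 in the middle-aged library on day 6, and 34.7 and 26.0 on day 10 (log2 -0.71, adjusted p = 0.085). In the cells kept, edgeR called 13 of 35 members lower (background 5.61%), and in all cells DESeq2 called 17 of 37. In young kept cells 7 of 22 were at least 1.5-fold lower (background 33.6%), a share no larger than that of all genes, and in middle-aged kept cells 26 of 29 were (background 31.2%). The summed log2 ratio of day 10 over day 6 was -0.63 (95% interval -0.70 to -0.56) in kept and -1.27 (95% interval -1.32 to -1.22) in all young cells, and -1.47 (95% interval -1.53 to -1.41) and -2.09 (95% interval -2.13 to -2.05) in middle-aged cells. The monocyte/macrophage markers of this cluster were higher on day 10 in both ages, as given above, and their part in the result was not tested. Cells that held them were not left out, because the filter used no monocyte/macrophage markers.

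The next question was whether age altered the response in microglia. On day 6 the members were on the whole higher in the middle-aged than in the young library of microglia-like clusters 10 and 8. On day 10 they were level or lower. The monocyte/macrophage markers of cluster 8 summed to more than its microglia markers on day 10, as given above, and their part was not tested. In cluster 10, 13 of 37 members were at least 1.5-fold higher in the middle-aged library on day 6 (background 6.66%) and 0 lower (background 8.82%), with a median log2 ratio of 0.43 against -0.046 over all genes. In cluster 8 they were 19 of 36 (background 10.1%), median 0.60 against -0.027. On day 10, cluster 10 had 6 of 36 lower (background 3.05%) and 1 higher (background 3.41%), median -0.19, and cluster 8 had 9 of 33 lower (background 3.4%), median -0.33. These are contrasts of 1 library with 1 library and have no replicate check, and age cannot be told apart from disease stage in them.

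**Figure D4:**
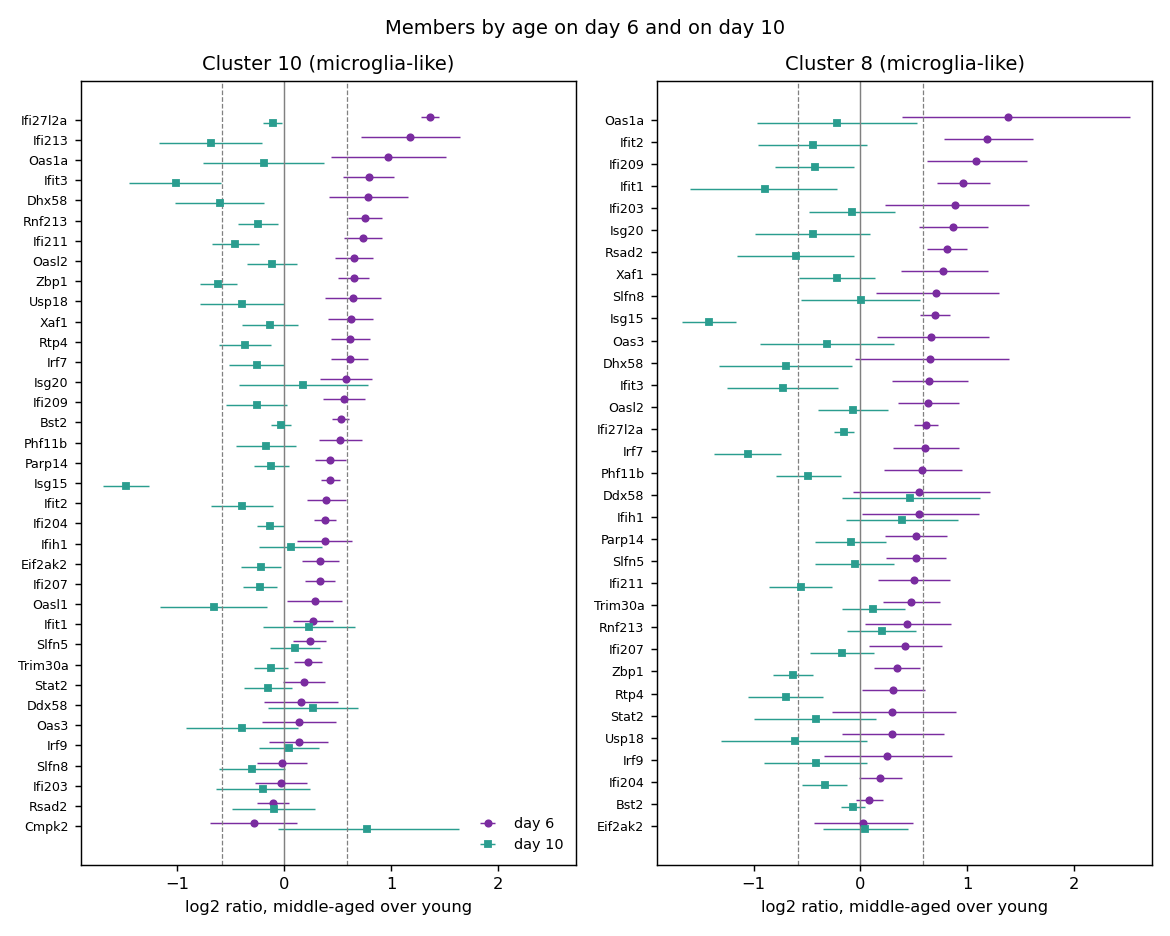
Log2 ratio of middle-aged over young for each member in microglia-like clusters 10 and 8 on day 6 and day 10, with bars for the 95% counting interval. On day 6 most members lie above 0 (medians 0.43 and 0.60) and on day 10 most lie below it (medians -0.19 and -0.33), with Isg15 at -1.48 and -1.42.

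In cluster 10 the largest day 6 differences were in Ifi27l2a, Ifi213 and Oas1a. Ifi27l2a was at 566 CPM in the young and 1456 in the middle-aged library (log2 ratio 1.36, 95% interval 1.28 to 1.44). Ifi213, a PYHIN gene, was at 19.5 and 44.1 (log2 ratio 1.18, 95% interval 0.72 to 1.64). Oas1a, which makes the oligoadenylate that activates RNase L, had a log2 ratio of 0.97 (95% interval 0.44 to 1.51). At the other end, the log2 ratio was -0.28 (95% interval -0.69 to 0.12) for Cmpk2 and -0.10 (95% interval -0.25 to 0.048) for Rsad2, and both intervals include 0.

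In cluster 8 on day 6, 4 of 4 IFIT and 4 of 4 OAS genes were at least 1.5-fold higher in the middle-aged library, with median log2 ratios of 1.07 and 0.65. Ifit1 was at 258 and 502 CPM (log2 ratio 0.96, 95% interval 0.71 to 1.21), and Rsad2 at 478 and 835 (log2 ratio 0.81, 95% interval 0.62 to 0.99). On day 10 the direction for both genes was the opposite, with log2 ratios of -0.89 and -0.60. Neutrophil-like cluster 0 held Ifit1 at 1655 and 2309 CPM and Rsad2 at 3226 and 4663 on day 6 (young, middle-aged). S100a8 and S100a9 of cluster 8 stood at 14.99% and 27.14% of their level there. Scaled by these shares, the cluster 0 levels lie near or above those of both genes in cluster 8 on day 6. The part of such RNA in their age ratios was not tested.

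Several measures moved with age beside these genes. S100a8 and S100a9 together were at 3817 CPM in young and 1109 in middle-aged cluster 10 on day 6, and the 10 microglia markers summed to 10534 and 6517, with none at 0. All 7 of 7 heat shock genes that the study had named were at least 1.5-fold lower in the middle-aged library (background 8.82%). Their median log2 ratio was -1.82, and their part in the result was not tested. Without the cells that held markers of another lineage, the age difference on day 6 was larger. The members' summed log2 ratio was 0.83 (95% interval 0.79 to 0.87) in kept and 0.54 (95% interval 0.51 to 0.57) in all cells, and 26 of 36 members were at least 1.5-fold higher (background 8.1%). In cluster 8 the kept cells gave 0.44 (95% interval 0.37 to 0.51), compared with 0.54 (95% interval 0.50 to 0.59) in all cells, and 6 of 24 members at least 1.5-fold higher (background 7.46%). S100a8 and S100a9 were at 6268 CPM in young and 9499.9 in middle-aged cluster 8 on day 6, where the ceiling for RNA of cluster 0 came to 54.3% and 79.6% of the members' level, compared with 40.7% and 11.5% in cluster 10, and their part in the age difference was not tested.

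Per cell, the median microglial cell of cluster 10 thinned to 2000 UMIs held 7 member UMIs in the young and 16 in the middle-aged library on day 6, and 7 and 6 on day 10. The middle-aged day 6 library therefore stood apart from the other 3 in this measure. When both days were used as replicates of an age, edgeR's quasi-likelihood test called 0 members for age in cluster 10 and 0 in cluster 8, with 1 and 1 at an unadjusted p below 0.05 and 0 by DESeq2. Over all genes this test called 0.142% in cluster 10 and 0.0956% in cluster 8. The test averages days on which the ratios had opposite signs for many members.

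Among infiltrating clusters the age contrast was uneven. In clusters 1, 5, 0, 2 and 7 few members differed on day 6. The count of members at least 1.5-fold higher in the middle-aged library was 0 of 38 in cluster 1 (background 4.62%), 1 of 38 in cluster 5 (background 5.3%), 2 of 37 in cluster 0 (background 4.01%), 1 of 37 in cluster 2 (background 4.53%) and 2 of 38 in cluster 7 (background 8.62%). On day 10 a few members were lower in the middle-aged library, 8 of 35 in cluster 0 (background 3.25%), 5 of 38 in cluster 1 (background 2.07%) and 5 of 36 in cluster 7 (background 3.69%), while clusters 5 and 2 had 1 of 36 (background 5%) and 1 of 34 (background 1.32%). Isg15 was lower in 7 of the 8 clusters. On day 10 its log2 ratio (middle-aged over young) lay between -1.50 and -1.01 in clusters 10, 8, 1, 5, 0, 2 and 7, and it was 0.62 (95% interval 0.13 to 1.08) in cluster 3.

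Smaller clusters, which were not in edgeR's test, gave other counts. In the NK-like cluster 9 (259 and 96 cells on day 6, young and middle-aged), 14 of 27 members were at least 1.5-fold higher in the middle-aged library on day 6 (background 4.74%), at a median log2 ratio of 0.59. In the neutrophil-like cluster 6 (60 and 43 cells on day 6), 7 of 30 were at least 1.5-fold lower on day 6 (background 19.2%). That share was near that of all genes and is no result about the members. On day 10 (515 and 83 cells), 19 of 27 were at least 1.5-fold higher there (background 14.2%), at a median of 0.70.

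In neutrophil-like cluster 3 members were higher in the middle-aged library on both days. On day 6, 19 of 30 members were at least 1.5-fold higher in the middle-aged library (background 7.77%) and on day 10 14 of 18 were (background 18.7%), with medians of 0.79 and 1.17. Ifit1 was at 431 CPM in the young and 1328 in the middle-aged library on day 6, and 10.7 and 39.6 on day 10. Rsad2 was at 596 CPM in the young and 2289.6 in the middle-aged library on day 6, and 41.7 and 148 on day 10. For both genes the middle-aged library exceeded the young on each day, and the days were farther apart than the ages. The marker content of this cluster differed between days and, on day 10, between ages, as given above. Its part in these differences was not tested. With both days as replicates, edgeR's quasi-likelihood test called 7 of 33 members higher in middle age (Isg20, Ifit1, Ifit3, Usp18, Zbp1, Rsad2 and Xaf1; background 0.84%), for example Ifit1 (log2 1.81, adjusted p = 0.03) and Rsad2 (log2 1.94, adjusted p = 0.021). These calls did not hold across settings. They numbered 0 with relative log size factors, with age as the tested factor alone, without cells of another lineage, and without the middle-aged day 6, the young day 10 or the middle-aged day 10 library, 3 by DESeq2, and 20 without the young day 6 library. In clusters 1, 5, 0, 2 and 7 edgeR and DESeq2 called 0 members for age, with 0 to 3 at an unadjusted p below 0.05 in each, where edgeR called 0.0982%, 0.655%, 0.208%, 0.0616% and 0.466% of all genes.

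The genes upstream of the members were read from lists of the pathway. Of the 18 type I interferon genes listed, the single-cell counts held Ifnb1 and Ifnz, and the Ifna genes were not analysed there. Ifnb1, interferon-β, had 18 UMIs in 9 of 8315 cells in the young day 6 library, 17 of them in 8 microglia of cluster 10 and 9 in 1 single cell. It had 9 UMIs in 8 of 10026 cells in the middle-aged day 6 library, 4 of them in cluster 10, 4 in cluster 1 and 1 in cluster 8. On day 10 it had 0 UMIs in 9843 and 9873 cells (young, middle-aged), which allows a share of cells with a UMI of up to 0.0305% and 0.0304%. These counts are too few to compare ages.

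In microglia-like cluster 10 fewer of the receptor and signalling genes (12 on the list) passed 1.5-fold than of the targets. Between ages on day 6, 0 of 12 were at least 1.5-fold higher (background 6.66%) and 0 lower (background 8.82%). Between days 2 of 12 were lower in young (background 21.2%) and 2 of 12 in middle-aged mice (background 15.2%). These shares were near those of all genes and are no result about the 12. Ifnar1 was at 54.7 CPM in the young and 56.7 in the middle-aged library on day 6, and 70.8 and 81.6 on day 10 (log2 0.60, adjusted p = 0.066 for day, edgeR). Ifnar2 was at 206 CPM in the young and 177 in the middle-aged library on day 6, and 202 and 188 on day 10 (log2 0.18, adjusted p = 0.69). Neither receptor gene was called in this cluster. Socs1, an inhibitor of the receptor kinases, was at 149 CPM in the young and 206 in the middle-aged library on day 6, and 92.5 and 73.3 on day 10 in cluster 10, with log2 ratios of day 10 over day 6 of -0.69 in young and -1.49 in middle-aged mice.

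Interferon-γ is the type II interferon, and many members also respond to it. Ifng in T cells of cluster 2 was at 441 CPM in the young and 1499.5 in the middle-aged library on day 6, and 559 and 361 on day 10, with the middle-aged day 6 library above the other 3. On the log2 scale middle-aged over young came to 1.77 (95% interval 1.71 to 1.82) on day 6 and -0.63 (95% interval -0.68 to -0.58) on day 10. Of the genes on the interferon-γ list, 5 of 10 with enough UMIs were at least 1.5-fold higher in middle-aged cluster 10 on day 6 (background 6.66%). In the same contrast 1 was lower (background 8.82%). The part of interferon-γ in the members' levels was not tested.

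The last comparison asked whether microglia of naive mice already differ by age. In the bulk counts, the members were slightly and broadly higher in the middle-aged library. All 39 of 39 had at least 50 counts over both libraries (totals of 79373420 in the young and 76293436 in the middle-aged), 35 of 39 were above a log2 ratio of 0 compared with 48.8% of genes, and the median was 0.43 compared with -0.0055 over 16946 genes. At least 1.5-fold higher were 10 (background 7.07%) and lower 0 (background 11.3%). The counting interval lay above 0 for 32 and below it for 1, Ifi203 at -0.25. At this depth a log2 ratio as small as that of Ddx58 (0.12) had an interval above 0. The share of all genes with such intervals was not counted, so these counts are no result about the members. Summed, the members held 963 and 1146 CPM (log2 ratio 0.25, 95% interval 0.24 to 0.27). With 1 library per age there is no test, and in a bulk sample fewer cells of a type and less RNA per cell cannot be told apart.

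**Figure D5:**
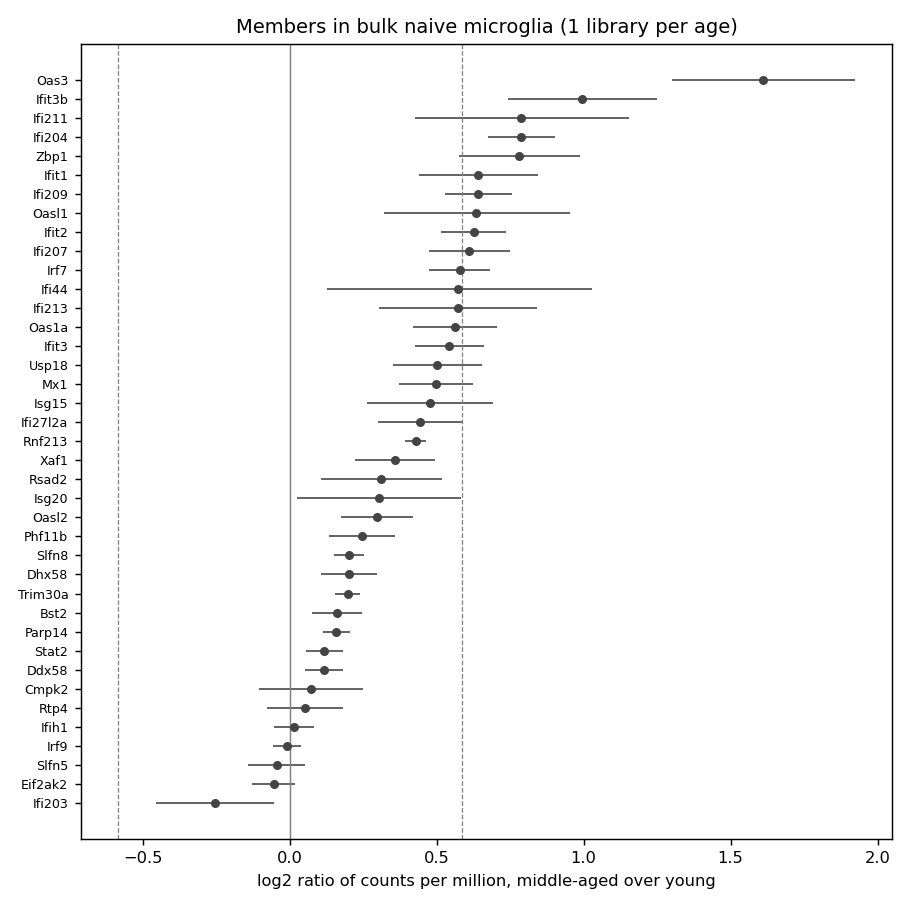
Log2 ratio of middle-aged over young in bulk naive microglia for each of the 39 members, with bars for the 95% counting interval (1 library per age). Oas3 at 1.61 is farthest above 0, Ifi203 at -0.25 is lowest, and 35 of 39 lie above 0.

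By role, 3 of 4 IFIT genes, 2 of 4 OAS genes, 4 of 6 PYHIN genes and 1 of 5 sensors and kinase genes were at least 1.5-fold higher, and 0 of the 20 members in the other groups. Oas3 had 117 counts in the young and 343 in the middle-aged library (log2 ratio 1.61, 95% interval 1.30 to 1.92). Ifit1 had 340 counts in the young and 510 in the middle-aged library (log2 ratio 0.64, 95% interval 0.44 to 0.84). Oas3 stood apart at the top of the list, with the other members in a continuous range below it. Zbp1, a sensor of Z-form nucleic acid that triggers necroptosis, had 316 counts in the young and 522 in the middle-aged library (log2 ratio 0.78, 95% interval 0.58 to 0.99).

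Isg15 had 314 counts in the young and 420 in the middle-aged library (log2 ratio 0.48, 95% interval 0.26 to 0.69). Rsad2 had 363 counts in the young and 433 in the middle-aged library (log2 ratio 0.31, 95% interval 0.11 to 0.52). Mx1 encodes a dynamin-like GTPase and was the member not analysed in single cells. It had 896 counts in the young and 1216 in the middle-aged library (log2 ratio 0.50, 95% interval 0.37 to 0.62). Each was higher in the middle-aged library by less than 1.5-fold. Irf7 had 1281 counts in the young and 1839 in the middle-aged library (log2 ratio 0.58, 95% interval 0.48 to 0.68), whereas Irf9 (-0.0097), Stat2 (0.12) and Eif2ak2, the kinase PKR (-0.055), had log2 ratios near 0. Scaled by exon length and library total, Bst2 was at 31.1 and 34.8 and Oas3 at 0.209 and 0.636 RPKM, so the gene with the largest ratio was one of low level.

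Among upstream genes in the bulk libraries, Ifnb1 had 4 counts in the young and 46 in the middle-aged library (log2 ratio 3.58, 95% interval 2.13 to 5.52). Socs3, an inhibitor of cytokine receptors, had a log2 ratio of 0.62, while Ifng had 0 counts in both. Other lists moved in the same libraries. The summed level of 9 endothelial markers was 683 CPM in the young and 164 in the middle-aged library, 9 of 9 being lower and none at 0, and the microglia markers were at 32034 and 30100.3. Of the 7 heat shock genes, 3 were at least 1.5-fold higher (median log2 ratio 0.52), as were 4 of 12 immediate-early genes (median 0.48), which respond to cell handling among other stimuli. Their part in the members' difference was not tested. Reads were assigned without strand, and 11 members share exon bases with another gene, 7 of them on the opposite strand, so reads of the partners cannot be told apart there.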

How the data were processed

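The 39 genes, the lists around them and the tests were chosen with earlier results of these data known. Groups were taken from the sample labels, 1 library for each age and day. The authors aligned and counted the single-cell libraries (10x Genomics) with Cell Ranger 3.1.0, filtered cells (at least 200 genes, at most 25000 reads, at most 10% mitochondrial and 50% ribosomal content, within 5 median absolute deviations) and clustered them with Seurat 4.0.4. They trimmed bulk reads with fastp 0.20.0, aligned them with HISAT2 2.1.0 to GRCm38.p6 with Ensembl release 99, and counted genes with featureCounts of Subread 1.5.0-p2 without strand. Both deposited tables hold raw counts, as UMIs per gene and cell or reads per gene.

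From these, UMIs were summed per deposited cluster and library and scaled by the total to CPM. Ratios of 2 libraries carry exact 95% conditional binomial intervals for counting error, and members with 50 or more counts over both libraries were compared at 1.5-fold. Sums of the 4 libraries were tested with edgeR 4.0.16 (quasi-likelihood, day and age as terms, TMM scaling, at least 10 UMIs in 2 libraries, Benjamini-Hochberg over all genes tested), and DESeq2 1.42.0 was an alternative. With 1 library for each age and day, the 1 residual degree of freedom measures how far the day and age effects depart from adding up. The test also shares variance across genes, so its p-values do not measure a spread between replicate libraries of 1 group. The tests were checked on simulated data. No doublets were called beyond the authors' filters, and cells with markers of another lineage (at least 2 UMIs, or 5 for neutrophils) were left out as an alternative. Named genes were 13 pathway members (Isg15, Usp18, Ifit1, Ifit2, Ifit3, Rsad2, Irf7, Irf9, Stat2, Ifi27l2a, Bst2, Mx1 and Oasl1) and, in each comparison, the 5 members with the largest rise and the 5 with the largest fall, from which examples were taken. Promoter sequences were taken from RefSeq, and the motif pattern searched in them was set by hand from general knowledge of the element. One gene of the pathway lists is not reported here.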

Additional observations from a re-analysis of the deposited data

Results flagged for a closer look

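For 11 combinations of a member and a cluster the age difference pointed in opposite directions on both days, at least 1.5-fold higher in the middle-aged library on day 6 and at least 1.5-fold lower on day 10. The 8 clusters of edgeR's test held 291 combinations with at least 50 UMIs on day 6 and 266 on day 10. The share of all genes that turned in this way was not counted, so the 11 are no result about the members. The difference between days was not tested, because each contrast sets 1 library against 1 library. In microglia-like cluster 10 the log2 ratios of middle-aged over young on day 6 and day 10 were Ifit3 0.79 and -1.01, Ifi213 1.18 and -0.68, Dhx58 0.79 and -0.60 and Zbp1 0.65 and -0.62. In microglia-like cluster 8 they were Isg15 0.70 and -1.42, Ifit1 0.96 and -0.89, Ifit3 0.64 and -0.72, Irf7 0.61 and -1.05 and Rsad2 0.81 and -0.60. The part of RNA of cluster 0 in these ratios of cluster 8 was not tested. Elsewhere, Ifit2 0.64 and -0.63 were the log2 ratios in neutrophil-like cluster 0, and Isg15 0.67 and -1.01 those in dendritic cell-like cluster 7. All members of a cluster share the same 4 libraries, so these are not separate observations of age.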

How the results depend on the processing

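Across the alternatives, 306 counts of members stayed within 1.5 times the reported count and 67 moved. The counts that moved, as members at least 1.5-fold higher or lower, were these. With a fold of 2, the age contrast on day 6 gave 2 in cluster 10 (from 13), 4 in cluster 8 (from 19), 0 in cluster 5 (from 1), 0 in cluster 0 (from 2), 12 in cluster 3 (from 19), 0 in cluster 2 (from 1), 0 in cluster 7 (from 2), the age contrast on day 10 gave 2 in cluster 10 (from 6), 2 in cluster 8 (from 9), 1 in cluster 1 (from 5), 2 in cluster 0 (from 8), 2 in cluster 7 (from 5) and the young day contrast gave 11 in cluster 10 (from 21). With a minimum of 200 UMIs, the age contrast on day 6 gave 12 in cluster 8 (from 19), 10 in cluster 3 (from 19), the age contrast on day 10 gave 4 in cluster 8 (from 9), 3 in cluster 3 (from 14), 2 in cluster 7 (from 5), the young day contrast gave 18 in cluster 8 (from 31), 13 in cluster 3 (from 24) and the middle-aged day contrast gave 15 in cluster 3 (from 30). With a minimum of 20 UMIs, the age contrast on day 10 gave 2 in cluster 2 (from 1). With cells with markers of another lineage left out, the age contrast on day 6 gave 26 in cluster 10 (from 13), 6 in cluster 8 (from 19), 1 in cluster 1 (from 0), 0 in cluster 2 (from 1), the age contrast on day 10 gave 10 in cluster 10 (from 6), 15 in cluster 1 (from 5), 4 in cluster 5 (from 1), 2 in cluster 2 (from 1) and the young day contrast gave 8 in cluster 10 (from 21), 7 in cluster 8 (from 31). With every cell thinned to 2000 UMIs, the age contrast on day 6 gave 21 in cluster 10 (from 13), 3 in cluster 2 (from 1), 5 in cluster 7 (from 2), the age contrast on day 10 gave 3 in cluster 10 (from 6), 3 in cluster 8 (from 9), 3 in cluster 2 (from 1), 2 in cluster 7 (from 5) and the young day contrast gave 11 in cluster 10 (from 21), 17 in cluster 8 (from 31). With TMM scaling, the age contrast on day 6 gave 1 in cluster 1 (from 0), 5 in cluster 0 (from 2) and the age contrast on day 10 gave 2 in cluster 2 (from 1). With mitochondrial and ribosomal protein genes left out of the total, the age contrast on day 6 gave 1 in cluster 0 (from 2), 1 in cluster 7 (from 2). In naive bulk microglia a fold of 2 left 1 member higher in place of 10. edgeR's calls for day fell to 10 by DESeq2 and 10 without cells of another lineage in cluster 10, and to 17 and 13 in cluster 8. edgeR's calls for age in cluster 3 were 0 with relative log size factors, with the tested factor alone and without cells of another lineage, 3 by DESeq2 and 16 with no filter on low counts, and no filter also gave 3 in cluster 0. With 1 library left out and the tested factor alone, as added after seeing the data (the lone library of a group is then assumed to vary like the others), calls for day numbered 8 to 29 in cluster 10, the lowest without the middle-aged day 10 and the highest without the young day 6 library, 0 to 31 in cluster 3 and 0 to 37 in cluster 7. Calls for age in cluster 3 numbered 0 to 20. Of the ratios of named members, 1362 stayed within their counting interval, 89 moved beyond it and 1 reversed, Ifit3 in young cluster 10 between days, at 0.058 without cells of another lineage. The cause of these changes was not tested, apart from fewer members or cells entering under stricter filters. No paired analysis was possible because every group is 1 library and all carry the same number, beyond the other factor (age or day) that the reported edgeR test already holds as a term. With the tested factor alone, calls for day were 17 in cluster 10, 32 in cluster 8, 38 in clusters 1 and 5, 37 in clusters 0 and 2, 29 in cluster 3 and 36 in cluster 7, and for age 0 in each. Depth limits members under 50 UMIs, which were not compared.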
